A study of Homo sapiens with 14 samples.

Results

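The major histocompatibility complex (MHC) was described here as the peaks of open chromatin that overlap hg19 chr6:29600000-33400000 in 14 ATAC-seq libraries of 2 human cell lines. The window spans 3.8 Mb, and all of its peaks were taken whatever their values. It held 3600 of the 1971391 deposited peaks, which merged into 655 of 410350 regions. The class I part (29.6 to 31.4 Mb) held 275 of these regions, the class III part (31.4 to 32.2 Mb) 231 and the class II part (32.2 to 33.4 Mb) 149.

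RH30 is an alveolar rhabdomyosarcoma line that carries the PAX3-FOXO1 fusion, and LHCN is an immortalised human myoblast line. RH30 cells received QC6352 (200 nM, an inhibitor of the KDM4 histone demethylases), 0.1% DMSO, a hairpin against KDM4B (shKDM4B-813 or shKDM4B-814) or a control hairpin (shCtrl). LHCN cells overexpressed PAX3-FOXO1 or carried the empty vector, and the labels give 72 h for every arm and 100000 cells for every library. Each of the 7 groups had 2 libraries, and the labels do not say whether these came from separate cultures, so p-values cover only the spread between these libraries. The lines were grown in different media, so line, medium and tumour origin cannot be told apart. All LHCN libraries belong to the fusion experiment and all RH30 libraries to the compound and hairpin experiments, so line and experiment cannot be told apart either.

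The names carried by the peaks inside 6 of the 14 files go against the labels. Peaks of the libraries labelled shCtrl are named sh813, those of the libraries labelled shKDM4B-813 are named sh814, and those of the libraries labelled shKDM4B-814 are named shCtrl. The other 8 files carry names that fit their labels. The hairpin libraries are called below by their label ("labelled shCtrl"), the hairpin comparisons are given by peak name as well, and the counts of regions kept in 1 line are given without these 6 libraries.

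The MHC is the densest cluster of immune genes in the human genome. Its class I genes encode the chains that present peptides from inside the cell to cytotoxic T cells and natural killer cells, and nearly all nucleated cells express class I molecules. Its class II genes (the HLA-DR, HLA-DQ and HLA-DP families) encode molecules that present captured antigen to helper T cells and are normally limited to professional antigen-presenting cells unless interferon gamma induces them. The class III stretch between them holds no antigen-presenting genes but complement genes (C2, CFB, C4A, C4B), the tumour necrosis factor cluster (TNF, LTA, LTB), heat shock genes (HSPA1A, HSPA1B) and many widely expressed genes. In the RefSeq gene table (GRCh38.p14), which gives gene order only here, the class II part begins with HLA-DRA, HLA-DRB1, HLA-DQA1 and HLA-DQB1. The peptide transporter and immunoproteasome genes (TAP2, PSMB8, TAP1, PSMB9) come next, then HLA-DMB, HLA-DMA, the widely expressed BRD2, HLA-DPA1 and HLA-DPB1, and last the widely expressed RXRB, RING1, TAPBP and DAXX. No hg19 annotation was used, so no peak is assigned to a gene.

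The lists differed in length, with 93488 to 176899 peaks in RH30 libraries and 170390 to 175594 in LHCN libraries. Every list was therefore trimmed to its 93488 strongest peaks by the authors' −log10 q, and these are called kept peaks. The files hold no reads, so depth is unknown, and the absence of a kept peak says only that no peak ranked high enough. Within a list, a peak's percentile gives its rank among the kept peaks, with 100 the strongest. The authors' fold enrichment, given below for named regions, is not on 1 scale across lists. A fold of 34.9 was at percentile 90.7 in PAX3-FOXO1 replicate 1, and a fold of 55.0 at percentile 90.2 in vector replicate 1. A difference in fold between libraries is therefore not by itself a difference in rank.

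Fewer of the strongest peaks lay in the MHC in RH30 than in LHCN. The MHC held 197 and 122 kept peaks in the QC6352 libraries, 176 and 178 in the DMSO libraries, 138 and 131 in those labelled shKDM4B-813, 138 and 147 in those labelled shKDM4B-814 and 149 and 141 in those labelled shCtrl. It held 220 and 228 in the PAX3-FOXO1 libraries and 258 and 260 in the vector libraries of LHCN. All RH30 libraries were below all LHCN libraries, and the 2 vector libraries were the highest of all. As a share of kept peaks, the MHC took 0.162% ± 0.0256 in RH30 (SD, n = 10), against 0.258% ± 0.0219 in LHCN (SD, n = 4), a ratio of 0.628. The two-sided exact permutation test over the libraries gave p = 0.000999, the smallest that its 1001 arrangements allow, and the same value after adjustment over the whole MHC and its 3 parts.

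All 3 parts were lower in RH30. The class I part took 0.0773% of kept peaks in RH30 and 0.131% in LHCN, a ratio of 0.591. The class II part took 0.0366% in RH30 and 0.0612% in LHCN, a ratio of 0.597. The class III part took 0.0483% in RH30 and 0.0663% in LHCN, a ratio of 0.729. No RH30 library overlapped an LHCN library in any of the parts (exact permutation p = 0.000999 and adjusted p = 0.000999 for each). The class III difference no longer passed with the lists as deposited (difference of -0.00227 percentage points, exact permutation p = 0.733) or with peaks of −log10 q of 10 or more (-0.00824, exact permutation p = 0.357). With the DMSO and labelled shCtrl libraries of RH30 alone set against the vector libraries, the MHC difference was -0.105 percentage points, with an exact permutation p of 0.0667, the smallest this design gives.

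**Figure D1:**
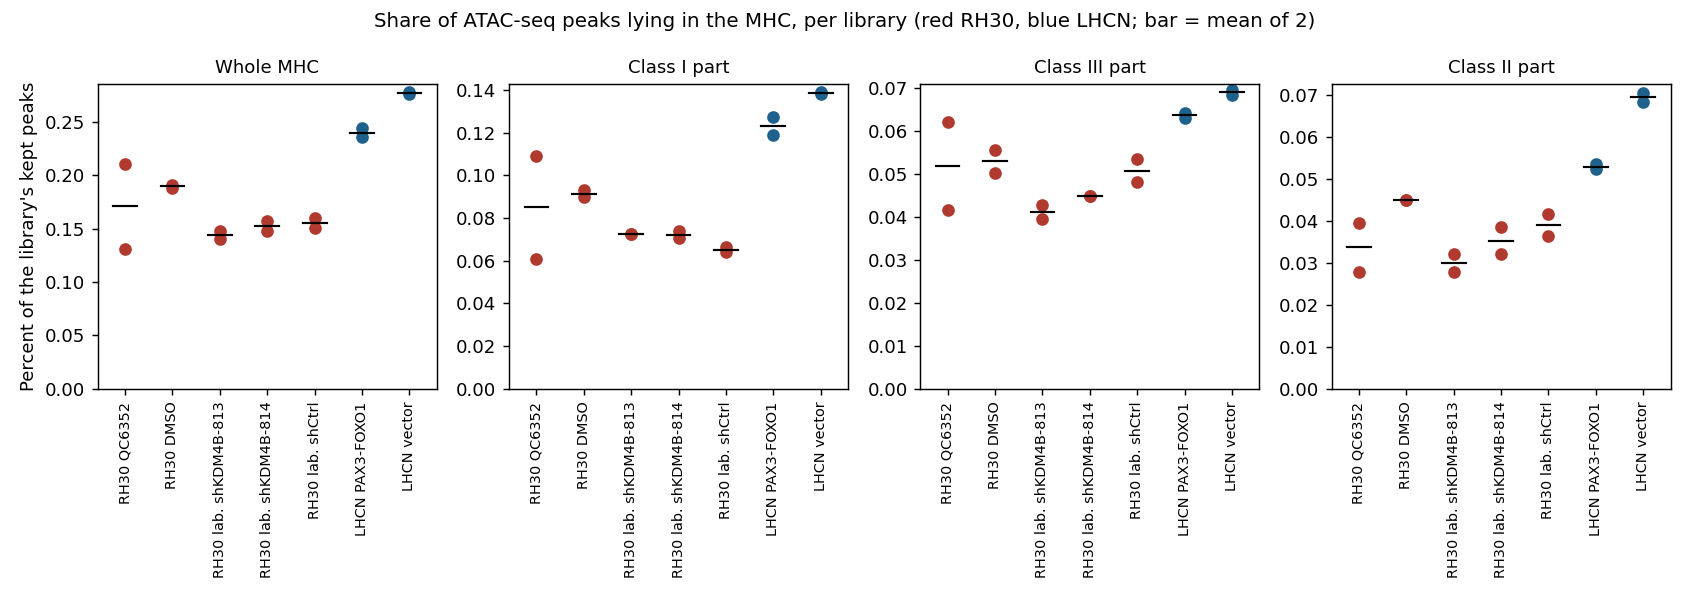
Percent of each library's 93488 kept peaks (y axes, linear from 0, own scale per panel) that lay in the whole MHC and in its class I, class III and class II parts, for the 7 groups (x axes; "lab." stands for labelled). Points are libraries, red for RH30 and blue for LHCN, and bars are means of 2; all RH30 points lie below all LHCN points in every panel, and the 2 QC6352 libraries lie far apart.

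The lower count in RH30 was not limited to the MHC along its arm of chromosome 6. The stretch of 3.8 Mb just below the MHC, which holds the large histone gene cluster, had 75 to 129 kept peaks in RH30 libraries and 230 to 233 in LHCN libraries. The stretch of 3.8 Mb just above it had 92 to 157 kept peaks in RH30 libraries and 154 to 203 in LHCN libraries. The rest of chromosome 6 had 3011 to 5795 kept peaks in RH30 libraries and 5460 to 5662 in LHCN libraries. Relative to the rest of chromosome 6, the log2 ratio of MHC peaks was -4.93 ± 0.385 in RH30 and -4.54 ± 0.142 in LHCN (SD, n = 10 and 4), a difference of -0.39 that did not pass the exact permutation test (p = 0.0789). Without any one of QC6352 replicate 1, labelled shCtrl replicate 1 or labelled shCtrl replicate 2 it passed, with exact permutation p of 0.0420, 0.0476 and 0.0420. Relative to the 2 flanks the direction turned, with a log2 ratio of -0.62 ± 0.118 in RH30 and -0.76 ± 0.0327 in LHCN, a difference of 0.14 (exact permutation p = 0.0350).

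The MHC peaks that RH30 kept were also seldom among its strongest. In QC6352 libraries 7.61% and 1.64% of the kept MHC peaks were in the strongest 10% of the list, in DMSO libraries 1.14% and 1.69%, in libraries labelled shKDM4B-813 0.725% and 0%, in those labelled shKDM4B-814 1.45% and 2.04%, and in those labelled shCtrl 2.01% and 1.42%. In PAX3-FOXO1 libraries the share was 9.09% and 10.96%, and in vector libraries 10.5% and 11.9%. The groups of the 2 lines did not overlap, and QC6352 replicate 1 with 15 such peaks stood apart from the other RH30 libraries, which had 0 to 3. The 2 flanks gave 1.498% to 5.50% in RH30 libraries and 5.19% to 6.72% in LHCN libraries, while the rest of chromosome 6 gave 6.67% to 12.4% in RH30 libraries and 9.16% to 10.6% in LHCN libraries. These shares were chosen after their values were seen and were not tested.

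Along the MHC, peaks thinned in RH30 over nearly the whole length. Of 38 windows of 100 kb, 36 had a lower mean count of kept peaks in RH30 than in LHCN and 1 a higher one. In 15 windows every RH30 library was below every LHCN library, and in 0 windows was the reverse true. In the class I part, the window at 29.8 to 29.9 Mb averaged 0.2 kept peaks in RH30 and 2.5 in LHCN, and the window at 30.4 to 30.5 Mb averaged 3.7 in RH30 and 9.8 in LHCN. Near 30.6 to 30.9 Mb the lines overlapped, and QC6352 replicate 1 had 13, 13 and 11 kept peaks in these 3 windows, as many as or more than any vector library.

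The class II part was uneven. From 32.3 to 32.7 Mb, the end of the part next to class III, no window held more than 3 merged regions over all libraries. At 32.3 to 32.4 Mb all 10 RH30 libraries had 0 kept peaks, while LHCN libraries had 2 to 3, and at 33.0 to 33.1 Mb all 10 had 0 again, while LHCN libraries had 2 to 4. At 32.5 to 32.6 Mb only QC6352 replicate 1 of RH30 had a kept peak, and every LHCN library had 3. The other end of the class II part was rich in both lines, and the window at 33.2 to 33.3 Mb averaged 10.3 kept peaks in RH30 and 11.8 in LHCN. These windows were named after their values were seen.

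**Figure D2:**
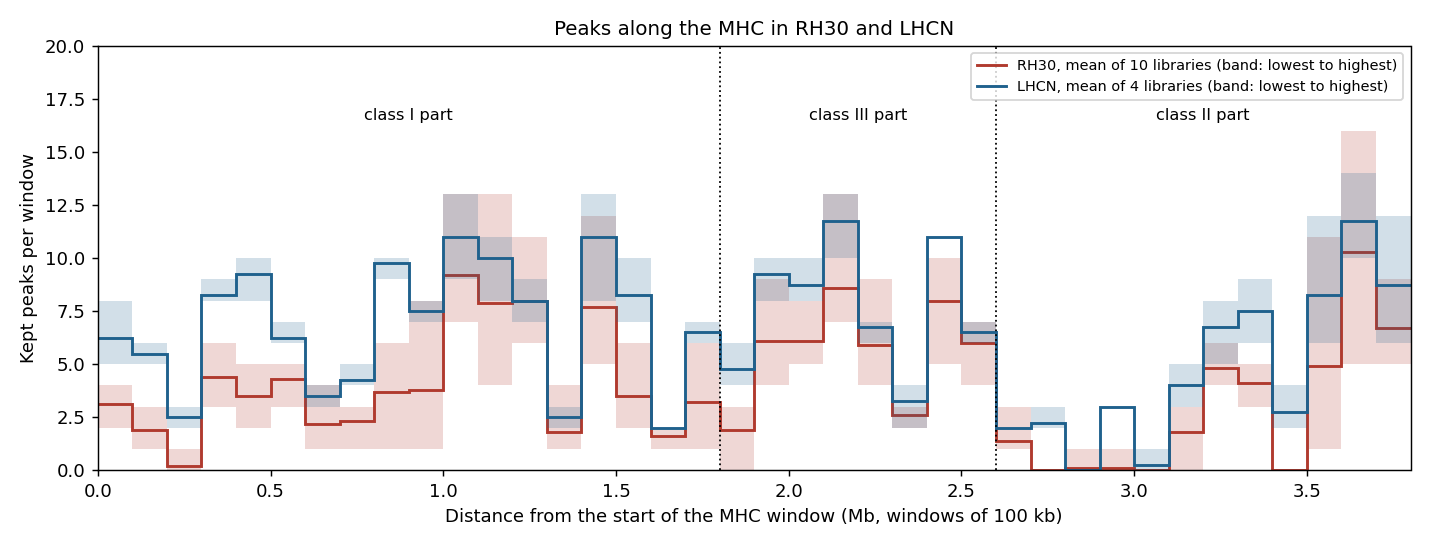
Kept peaks per window of 100 kb (y axis) against distance from the start of the MHC window in Mb (x axis), red for the mean of 10 RH30 libraries and blue for the mean of 4 LHCN libraries, with bands from the lowest to the highest library and dotted lines between the parts. The RH30 mean lies below the LHCN mean in 36 of 38 windows, and RH30 is at 0 in windows of the class II part where LHCN has 2 to 4 peaks.

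Kept peaks of the 14 libraries merged into 370 MHC regions, of which 88 (23.8%) had peaks in RH30 libraries and none in LHCN, 104 (28.1%) had peaks in LHCN libraries and none in RH30, and 178 (48.1%) had both. Over the 243086 regions of the genome the shares were 51.2%, 17.5% and 31.3% in the same order. The class III part had the highest density, 138 regions per Mb, and the largest share seen in RH30 alone (35.5%). The class II part had 71.7 regions per Mb and the largest share seen in LHCN alone (38.4%). The class I part had 96.7 regions per Mb and the largest share seen in both lines (54.0%).

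A kept peak in all 10 RH30 libraries and in no LHCN library was found at 1 of the 370 MHC regions (0.270%), against a background of 1.73% of all regions. The reverse, a kept peak in all 4 LHCN libraries and in no RH30 library, was found at 30 MHC regions (8.11%), against a background of 5.66%. These 30 were 12 of 174 in the class I part, 9 of 110 in the class III part and 9 of 86 in the class II part. At 6 of the 30 a weaker peak of some RH30 library lay in the deposited lists. Without the 6 hairpin libraries, 3 MHC regions (0.811%, background 3.2%) were kept in the 4 remaining RH30 libraries alone and 35 (9.46%, background 7.38%) in LHCN alone.

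The region kept in every RH30 library was chr6:31080165-31080825 in the class I part. Its fold enrichment, as the authors' peak caller gave it, was 6.19 and 5.46 in the QC6352 libraries, 12.6 and 14.2 in the DMSO libraries, and 6.97 to 11.5 in the 6 hairpin libraries. In LHCN it was 5.94 and 7.43 in the PAX3-FOXO1 libraries, below the kept peaks, and the vector lists held no peak there. Its percentile was 40.9 and 28.2 in the QC6352 libraries, 71.6 and 77.8 in the DMSO libraries, and 42.0 to 71.4 in the 6 hairpin libraries. The fold in the PAX3-FOXO1 libraries lay within the range of the RH30 libraries, and only its rank was too low for a kept peak.

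Among the regions kept only in LHCN, the strongest was chr6:30069436-30070511 in the class I part. Its fold was 34.9 and 50.6 in the PAX3-FOXO1 libraries and 65.4 and 83.6 in the vector libraries, and its percentile was 90.7 or higher in all 4. One RH30 library, labelled shKDM4B-813 replicate 1, had a peak of fold 5.67 there, and the other RH30 libraries had none. The region chr6:31781903-31783570 in the class III part had a fold of 19.9 and 32.3 in the PAX3-FOXO1 libraries and 41.1 and 48.5 in the vector libraries, with no deposited peak in RH30. In the class II part, chr6:32590234-32590592 (fold of 11.1 and 13.7 with PAX3-FOXO1, 17.6 and 20.4 with vector) and chr6:32337471-32337799 (10.3 and 14.01 with PAX3-FOXO1, 17.8 and 15.1 with vector) likewise had none in RH30. Both lie in the sparse stretch described above.

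A kept peak in all 14 libraries was found at 57 MHC regions (15.4%), against a background of 9.68% of all regions. They were spread evenly, with 26 in the class I part (14.9%), 17 in the class III part (15.5%) and 14 in the class II part (16.3%). The strongest in each part were chr6:30719446-30720761, chr6:32162634-32165362 and chr6:33377646-33379370. At chr6:32162634-32165362 the fold was 11.4 to 23.9 in RH30 libraries and 63.5 to 107 in LHCN libraries, and its percentile was 78.3 or higher in every library. This shared site thus ranked lower in RH30 libraries (78.3 to 92.5) than in LHCN libraries (98.2 to 98.9).

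**Figure D3:**
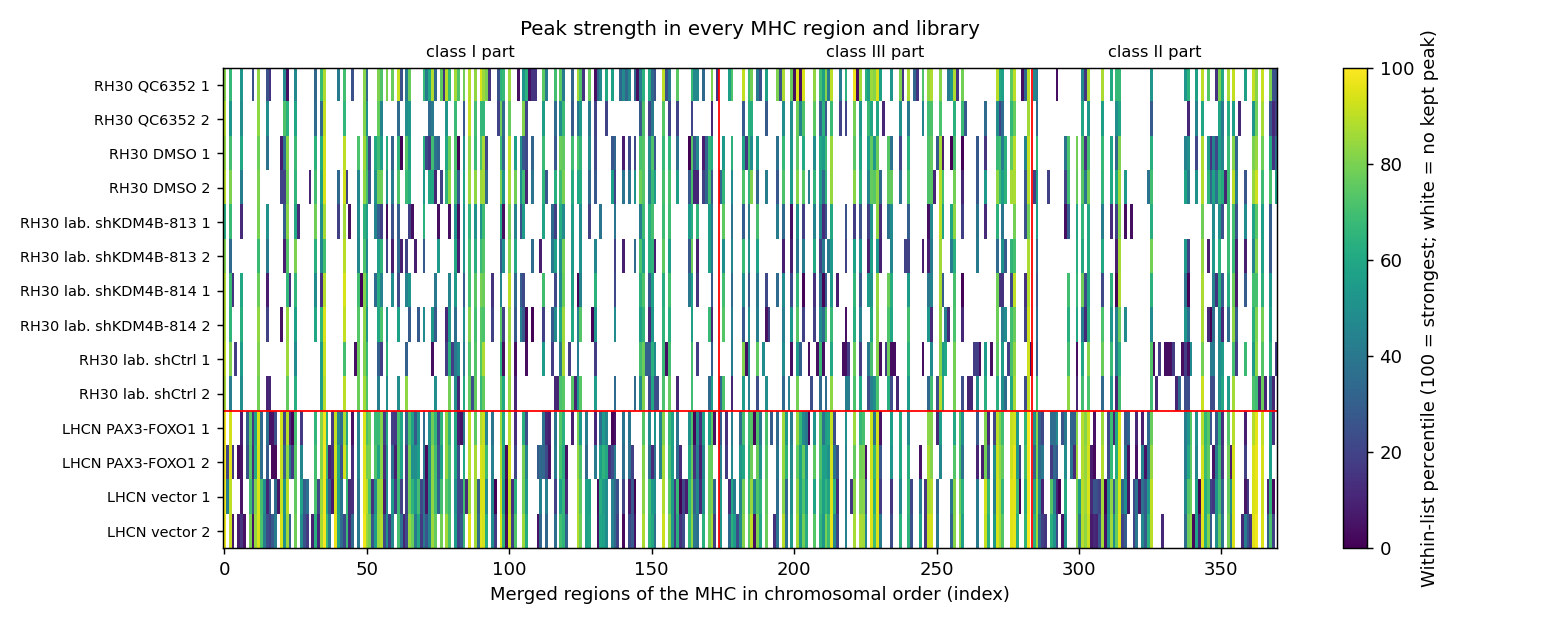
Within-list percentile of the strongest kept peak (colour, 100 strongest, white for no kept peak) in each of the 370 MHC regions in chromosomal order (x axis, index) for the 14 libraries (y axis), with red lines between the parts and between the lines. The 4 LHCN rows are fuller and brighter than the 10 RH30 rows, and 57 columns are filled in all 14.

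PAX3-FOXO1 expression in LHCN went with fewer MHC peaks. For this comparison the 4 lists were trimmed to 170390 peaks. The MHC took 0.205% ± 0.00373 with PAX3-FOXO1 and 0.227% ± 0.00124 with vector (SD, n = 2 each), a ratio of 0.902. The class II part showed the lowest ratio, 0.837 (0.0499% with PAX3-FOXO1, 0.0596% with vector), then the class I part with 0.915 and the class III part with 0.944. The groups did not overlap in the MHC or in any part, but the exact permutation test cannot go below p = 0.333 with 2 libraries against 2, and that was its value. In the lists of 93488, the stretch above the MHC also had fewer kept peaks with PAX3-FOXO1, 155 and 154, against 199 and 203 with vector. The stretch below it did not, with 230 and 233 with PAX3-FOXO1 and 231 in both vector libraries.

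A region was called gained when both PAX3-FOXO1 libraries and neither vector library had a kept peak, and lost in the reverse case. Gained regions numbered 14 of 432 in the MHC (3.24%), against a background of 8.13%. Lost regions numbered 34 (7.87%), against a background of 8.44%, so only the gained share was far from the genome's. The class I part had 8 gained and 16 lost regions, the class III part 5 gained and 8 lost, and the class II part 1 gained and 10 lost. Leaving out 1 library loosens this rule, so more regions can be called, and the counts that follow are given without a background. Calls then moved past 1.5 times, with 22 gained without either PAX3-FOXO1 replicate. Lost regions were 56 without PAX3-FOXO1 replicate 2, 57 without vector replicate 1 and 52 without vector replicate 2.

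The strongest gained region was chr6:29676281-29677245 in the class I part, with a fold of 10.3 and 12.3 in the PAX3-FOXO1 libraries and no deposited peak with vector. Among RH30 libraries it had a peak only in those labelled shKDM4B-813, with a fold of 5.27 and 4.51. The strongest lost region was chr6:30663171-30663533 in the class I part, with no deposited peak with PAX3-FOXO1, a fold of 14.3 and 15.7 with vector, and no deposited peak in RH30. In the class II part the strongest was chr6:32854410-32854788, with none with PAX3-FOXO1, a fold of 12.2 and 13.6 with vector, and none in RH30. The window with the most lost regions was 30.7 to 30.8 Mb with 4, and the one with the most gained regions was 31.0 to 31.1 Mb with 4.

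Gained regions were set against RH30, which carries the fusion. Both DMSO libraries had a kept peak at 3 of the 14 gained MHC regions (21.4%, and 21.7% over the genome) and at 0 of the 34 lost ones (3.10% over the genome). Of the 279 MHC regions kept in all 4 LHCN libraries, 138 (49.5%) had a kept peak in both DMSO libraries, and 43.0% did over the genome. The Jaccard index over MHC regions (regions shared over regions in either) was higher with the PAX3-FOXO1 libraries than with the vector libraries for every RH30 library. It was 0.575 and 0.602 for the DMSO libraries with PAX3-FOXO1 and 0.510 and 0.520 with vector. The lowest values were those of labelled shCtrl replicate 1, 0.377 with PAX3-FOXO1 and 0.320 with vector. The numbers shared were close, 136 to 144 regions for the DMSO libraries with PAX3-FOXO1 and 137 to 142 with vector, and QC6352 replicate 1 shared 139 with each PAX3-FOXO1 library and 142 and 143 with the vector libraries. The regions in either differed more, 232 to 244 for the DMSO libraries with PAX3-FOXO1 and 267 to 275 with vector. The PAX3-FOXO1 lists held fewer MHC peaks, and the part of this in the gap was not tested. Over all regions of the genome the index was also higher with PAX3-FOXO1 for every RH30 library. For the DMSO libraries it was 0.397 and 0.385 there with PAX3-FOXO1 and 0.346 and 0.340 with vector.

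QC6352 did not move the MHC share in 1 direction. With lists of 105136 peaks, the MHC took 0.199% and 0.128% with QC6352 and 0.176% and 0.177% with DMSO, so the DMSO libraries lay between the QC6352 libraries (exact permutation p = 1). The class II part alone was lower in both QC6352 libraries, 0.0371% and 0.0276%, against 0.0419% in both DMSO libraries, with an exact permutation p of 0.333, the smallest possible, and an adjusted p of 1. The 2 QC6352 libraries shared fewer MHC regions with each other (Jaccard index 0.607) than the 2 DMSO libraries did (0.860). QC6352 replicate 2 had the longest deposited list of RH30, 176899 peaks, and replicate 1 had 111272; the part of list length in this gap was not tested.

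Gained regions under QC6352 numbered 6 of 244 in the MHC (2.46%), against a background of 6.5%, and lost regions 21 (8.61%), against a background of 7.28%. The class I part had 1 gained and 10 lost, the class III part 4 gained and 5 lost, and the class II part 1 gained and 6 lost. At 11 of the 21 lost regions a weaker peak of a QC6352 library lay in the deposited lists. A call needs both libraries of a group and neither of the other. Leaving out 1 library loosens this rule, so more regions can be called, and these counts are given without a background. Without QC6352 replicate 1 there were 14 gained and 46 lost. There were 45 gained without QC6352 replicate 2 and 36 lost without DMSO replicate 1. With the lists as deposited there were 10 of each, also given without a background.

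The strongest lost region was chr6:32787442-32788022 in the class II part. Neither QC6352 list held a peak there, and its fold was 15.3 and 13.9 in the DMSO libraries. The hairpin libraries had 5.20 to 11.8, and LHCN libraries 26.3 to 41.4, so QC6352 libraries were the only ones of the 14 without a peak. In the class III part the strongest was chr6:31848841-31849390, with no peak and 4.27 in the QC6352 libraries and 13.3 and 13.5 in the DMSO libraries. Lost regions were most frequent, 3 per window, at 32.7 to 32.8 Mb and 33.2 to 33.3 Mb of the class II part.

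The fusion and QC6352 comparisons share no library, and their calls met at 3 MHC regions. At chr6:31436142-31436463 in the class III part, QC6352 libraries had no deposited peak and DMSO libraries had a fold of 8.64 and 10.5. In LHCN the fold was 4.91 and 7.43 with PAX3-FOXO1, and the vector lists held none. At chr6:32774954-32775240 in the class II part, QC6352 libraries again had no deposited peak and DMSO libraries had 12.6 and 11.2, while LHCN had 5.94 and 6.86 with PAX3-FOXO1 and none with vector. The 6 hairpin libraries had peaks at both, with a fold of 4.46 to 15.8 at the first and 4.92 to 11.7 at the second. The calls that picked both regions set their peaks with PAX3-FOXO1 and DMSO and the lack of kept peaks with vector and QC6352. The hairpin peaks were not set by this choice.

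The third region went the other way. At chr6:31916556-31916877 in the class III part the fold was 9.10 and 6.17 with QC6352 and the DMSO lists held no peak, while the PAX3-FOXO1 lists held none and the fold was 5.95 and 6.20 with vector. In numbers, 2 of the 14 fusion-gained regions (14.3%) overlapped 2 of the 21 QC6352-lost regions (9.52%), against 5.63% and 8.62% over the genome. Of the 34 fusion-lost regions, 1 (2.94%) overlapped 1 of the 6 QC6352-gained regions (16.7%), against 1.58% and 2.80% over the genome. No MHC region was gained in both or lost in both, and such overlaps were also few over the genome. There, 1.8% of fusion-gained regions were gained with QC6352 and 0.607% of fusion-lost regions were lost with it. In the deposited lists, 14 of 655 MHC regions (2.14%, and 4.43% over the genome) had a peak with PAX3-FOXO1 (both replicates) but not with vector (either replicate). Of these 14, 8 (57.1%, and 47.5% over the genome) had no peak in any RH30 library. A peak in all 8 RH30 libraries without QC6352 and in neither with it was found at 2, against 209 of 18159 over the genome. Of the 14, 3 (21.4%, and 22.6% over the genome) had one in both DMSO libraries: the first 2 regions above and chr6:31080165-31080825, the region kept in every RH30 library. These regions were singled out after their values were seen.

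**Figure D4:**
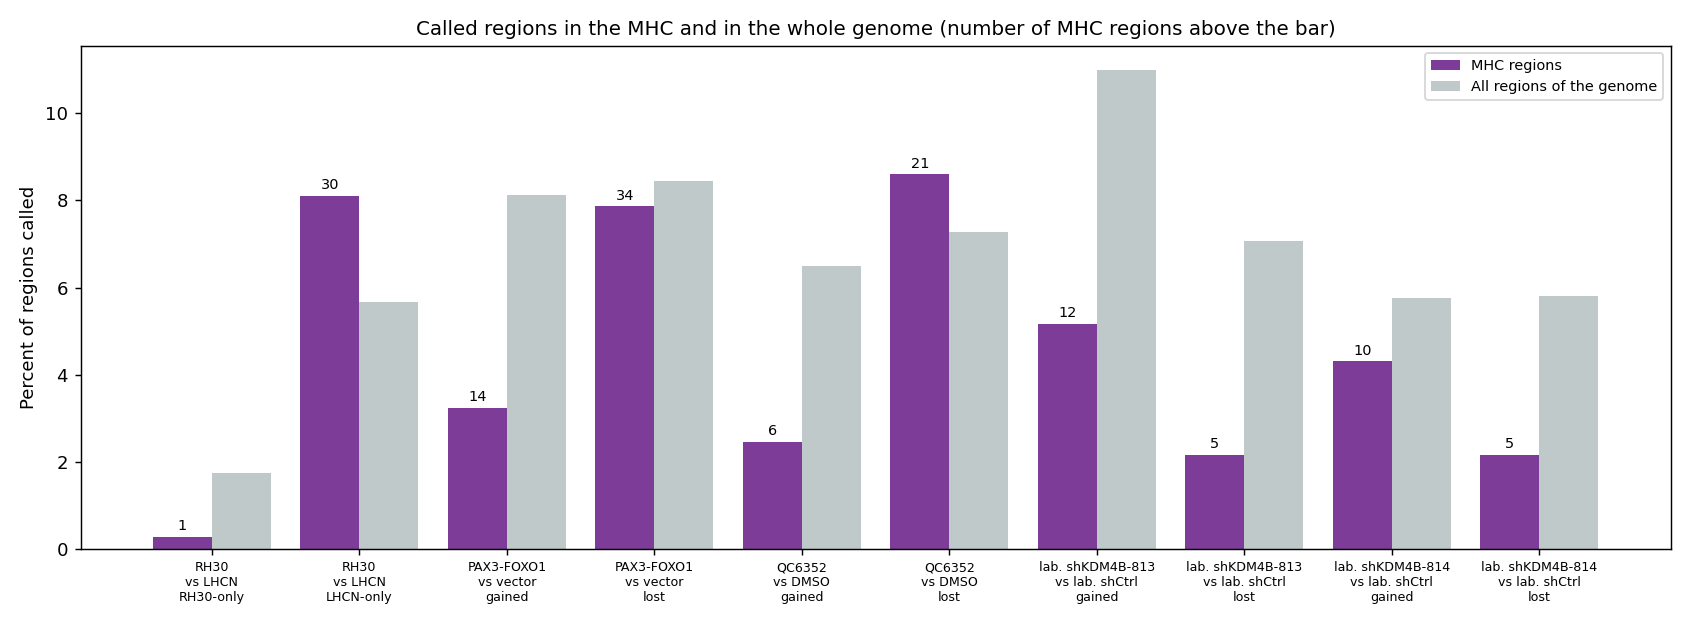
Percent of regions called (y axis) in the MHC (purple, with the number of regions above the bar) and in the whole genome (grey) for each comparison and direction (x axis; "lab." stands for labelled). Gained regions fall short of the genome's share in every treatment comparison, and lost regions do so in the fusion and both labelled hairpin comparisons. Regions kept only in LHCN (30, 8.11% against 5.66%) and lost with QC6352 (21, 8.61% against 7.28%) exceed it. The shares lie close together for regions lost with QC6352, lost with PAX3-FOXO1 (7.87% against 8.44%) and gained with labelled shKDM4B-814 (4.31% against 5.77%).

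In lists of 93488 the MHC took 0.144% ± 0.00529 in the libraries labelled shKDM4B-813, 0.152% ± 0.00681 in those labelled shKDM4B-814 and 0.155% ± 0.00605 in those labelled shCtrl (SD, n = 2 each). The class I part was higher, 0.0727% and 0.0722%, in both groups labelled shKDM4B than in the group labelled shCtrl, 0.0652%. The class III part was lower, 0.0412% and 0.0449%, against 0.0508% in the group labelled shCtrl. The class II part was 0.0300% in the group labelled shKDM4B-813 and 0.0353% in that labelled shKDM4B-814, against 0.0390% in the group labelled shCtrl. Libraries labelled shKDM4B-813 did not overlap those labelled shCtrl in the MHC or in any part, and the exact permutation p was 0.333 each time, the smallest possible. Libraries labelled shKDM4B-814 overlapped them in the MHC and in the class II part (exact permutation p = 0.667) but not in the class I and class III parts (exact permutation p = 0.333).

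By peak name the order was another. The MHC took 0.155% of kept peaks in the group named sh813, 0.144% in that named sh814 and 0.152% in that named shCtrl. In the class I part the share was 0.0652% in the group named sh813 and 0.0727% in that named sh814, against 0.0722% in that named shCtrl, so the hairpins no longer lay on the same side of the control. In the class III part it was 0.0508% in the group named sh813 and 0.0412% in that named sh814, against 0.0449% in that named shCtrl. In the class II part it was 0.0390% in the group named sh813 and 0.0300% in that named sh814, against 0.0353% in that named shCtrl.

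Set against labelled shCtrl, the libraries labelled shKDM4B-813 gained 12 of 232 MHC regions (5.17%, background 11%) and lost 5 (2.16%, background 7.08%). Those labelled shKDM4B-814 gained 10 (4.31%, background 5.77%) and lost 5 (2.16%, background 5.81%). At many of these regions the group without a kept peak had a weaker deposited one. This held for 6 gained and 5 lost regions of labelled shKDM4B-813, and for 9 gained and 2 lost of labelled shKDM4B-814. By peak name, sh813 against shCtrl gained 5 (background 5.81%) and lost 10 (background 5.77%), and sh814 against shCtrl gained 7 (3.02%, background 4.79%) and lost 6 (2.59%, background 2.58%). Weaker deposited peaks lay at 2 gained and 9 lost regions of named sh813, and at 2 gained and 4 lost of named sh814. Leaving out 1 library loosens the rule for a call, and such counts are given without a background. The labelled shKDM4B-813 calls then ranged over 19 to 27 gained and 12 to 41 lost. The labelled shKDM4B-814 calls ranged over 14 to 24 gained and 8 to 38 lost. Both comparisons had the most lost without labelled shCtrl replicate 2. The region chr6:30012331-30012803 in the class I part led the gained regions in both labelled comparisons. Its fold was 17.0 and 9.84 in those labelled shKDM4B-813 and 7.73 and 8.16 in those labelled shKDM4B-814, against no peak and 4.77 in those labelled shCtrl, and it was 10.6 and 11.5 in the DMSO libraries. It was thus low in the libraries labelled shCtrl and not in the DMSO controls.

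The DMSO libraries give another reference for the hairpins, although the treatments differ. Against DMSO the libraries labelled shKDM4B-813 gained 2 of 246 MHC regions (background 5.8%) and lost 28 (11.4%, background 4.87%). Those labelled shKDM4B-814 gained 1 (background 2.27%) and lost 28 (11.4%, background 3.9%). Those labelled shCtrl gained 2 (background 6.16%) and lost 35 (14.2%, background 7.81%). A weaker deposited peak lay at 22 of the 28 lost regions for labelled shKDM4B-813. It lay at 2 of the 28 for labelled shKDM4B-814 and at 17 of the 35 for labelled shCtrl. In all 3 groups the lost share of MHC regions was above the background, and it was the highest in the group labelled shCtrl. The mean Jaccard index with the DMSO libraries over MHC regions was 0.625 for QC6352, 0.660 for labelled shKDM4B-813, 0.688 for labelled shKDM4B-814 and 0.565 for labelled shCtrl. The libraries whose peaks are named shCtrl (labelled shKDM4B-814) were therefore the closest to DMSO, and those labelled shCtrl the farthest, also over the whole genome (0.571 and 0.447). The 2 libraries labelled shCtrl had an index of only 0.535 with each other over MHC regions, below their mean with DMSO. Over the genome it was 0.551. The part of this replicate spread in their distance from DMSO was not tested.

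**Figure D5:**
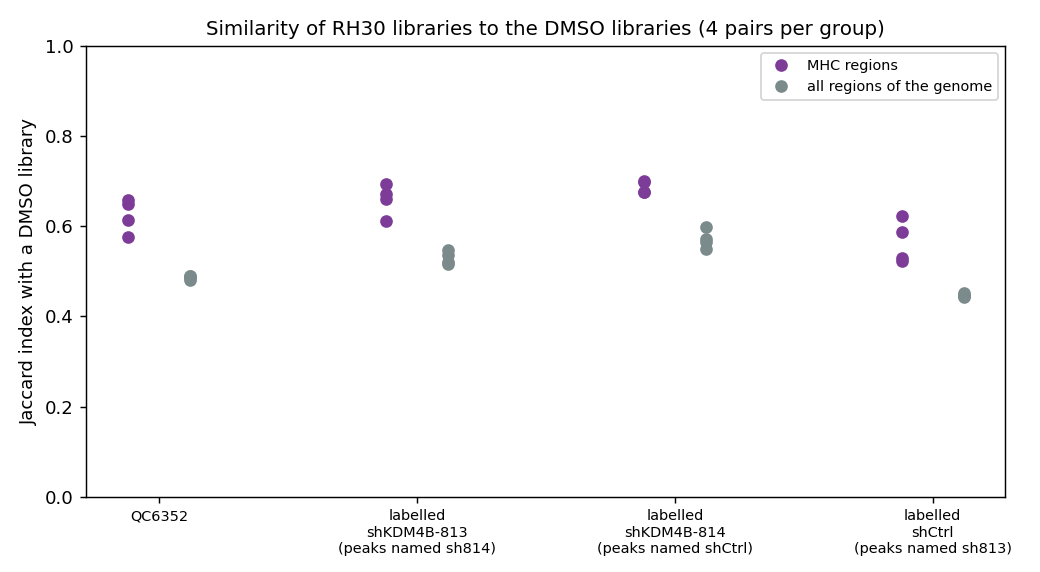
Jaccard index of each RH30 library with each DMSO library (y axis, 4 pairs a group) over MHC regions (purple) and over all regions (grey), for QC6352 and the hairpin groups by label, with the name inside the files in brackets (x axis). The pairs of the group labelled shKDM4B-814 are the highest on average (mean 0.688 in the MHC) and those of the group labelled shCtrl the lowest (0.565).

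KDM4 inhibition and knockdown were last pooled, with QC6352 and both groups labelled shKDM4B each set against their own controls. The pooled difference in the MHC share was -0.00990 percentage points (exact permutation within experiments, 90 arrangements, p = 0.722). In the class II part it was -0.00796 (p = 0.0444 in that exact test), which did not pass after adjustment over the 4 values (adjusted p = 0.178). By peak name the class II difference was -0.00516 (p = 0.244 in that exact test) and the MHC difference -0.00789 (exact p = 0.789). The class I difference by peak name was -0.00422 (exact p = 0.733) and the class III difference 0.00149 (exact p = 0.811). By label, the class I difference was 0.000994 (exact permutation p = 0.956) and the class III difference -0.00293 (exact permutation p = 0.567). The whole-MHC value by label depended on QC6352: it was -0.0275 without QC6352 replicate 1 and 0.00770 without QC6352 replicate 2. The class I value by label was 0.0117 without QC6352 replicate 2, and the class III value -0.00744 without QC6352 replicate 1. Each of these leaves 1 QC6352 library.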

How the data were processed

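ATAC-seq reads were processed by the authors on hg19 with MACS2 2.1.1, SAMtools 1.3.1, Picard 1.65 and BWA 0.7.12-r1039, per the submitters' processing notes, and 1 peak list per library was deposited. The deposited columns used are the −log10 q and the fold enrichment (a ratio); the deposited −log10 p-value and score columns were read for checks only. The lowest −log10 q per list was 2.00 to 2.60, so the authors' threshold can differ between lists. Lists were trimmed to equal length by −log10 q, with ties ordered by fold and then by position (93488 peaks for all 14 and for the hairpins, 170390 for fusion, 105136 for the compound), and merged where peaks overlap by at least 1 bp. A peak belongs to the part that holds its summit, and a merged region to the part that holds its midpoint. Calls need both libraries of one group and neither of the other. Shares of kept peaks were compared by two-sided exact permutation tests over libraries, with Benjamini-Hochberg adjustment over 4 values (threshold 0.05). Scripts (Python 3.11.15) were tested on simulated data. The named regions are up to 3 per part, comparison and direction with the highest lower percentile. Members and lists were chosen with earlier results of these data known. Gene lists and motifs were not used, since no hg19 genome or annotation was at hand. Alternatives were the lists as deposited, −log10 q of 10 or more, the 50000 strongest peaks, 50% coverage of a region, other controls, replicate pairing and leaving out libraries. After the data were seen, grouping by peak name and line comparisons without the hairpins were added.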

Additional observations from a re-analysis of the deposited data

How the results depend on the processing

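The line difference in the MHC share kept its direction and its side of the threshold with the lists as deposited, with −log10 q of 10 or more, with the 50000 strongest peaks, and without each library in turn (-0.104 to -0.0895 percentage points). With control libraries only (DMSO and labelled shCtrl of RH30 against vector) it was -0.105. This did not pass the threshold, which the exact permutation test cannot reach with so few libraries. The peaks of the libraries labelled shCtrl are named sh813. The log2 ratio to the rest of chromosome 6 was -0.449 to -0.340 without 1 library, and 0.144 with both flanks as the denominator. The PAX3-FOXO1 difference was -0.0255 at −log10 q of 10 or more and -0.053 among the 50000 strongest (-0.0249 to -0.0197 without 1 library). The labelled shKDM4B-813 difference was -0.0283 as deposited, -0.019 among the 50000 strongest and -0.0455 against DMSO. By peak name, the difference of sh813 (labelled shCtrl) from shCtrl (labelled shKDM4B-814) was 0.00267, and no library labelled shKDM4B-813 enters it. The labelled shKDM4B-814 difference was -0.0287 as deposited and -0.0369 against DMSO. The pooled KDM4 difference ran from -0.0275 to 0.00770 without 1 library. For the class I part it ran from -0.00971 to 0.0117, and it was -0.00602 at −log10 q of 10 or more, -0.00825 among the 50000 strongest and -0.00422 by peak name. For the class III part it ran from -0.00744 to 0.00159, and it was 0.00149 by peak name. The causes were not tested.

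Counts of regions moved most, and counts without 1 library follow a looser rule for a call. All counts in this paragraph are given without a background. The number of merged MHC regions differs between settings (655 as deposited, 370 in the trimmed lists of all 14), so these counts are not shares. RH30-only regions were 0 as deposited, at −log10 q of 10 or more, among the 50000 strongest and at 50% coverage, 3 without the hairpins, and 1 to 2 without 1 library. LHCN-only regions were 73, 98 and 19 under the first 3 of these and 30 to 39 without 1 library. PAX3-FOXO1 calls among the 50000 strongest were 4 gained and 17 lost (16 to 22 and 42 to 57 without 1 library). QC6352 calls were 10 gained and 10 lost as deposited, 3 gained at −log10 q of 10 or more, and 7 to 45 gained and 22 to 46 lost without 1 library. Labelled shKDM4B-813 calls, gained and lost, were 22 and 26 as deposited, 5 and 10 among the 50000 strongest, 2 and 28 against DMSO, and 19 to 27 and 12 to 41 without 1 library. By peak name, sh813 (labelled shCtrl) against shCtrl (labelled shKDM4B-814) gave 5 and 10. The libraries labelled shKDM4B-813, named sh814, gave 7 and 6 against named shCtrl. Labelled shKDM4B-814 calls were 1 and 42 as deposited, 4 gained among the 50000 strongest, 11 lost at 50% coverage, 1 and 28 against DMSO, and 14 to 24 and 8 to 38 without 1 library. The deviations of same-numbered libraries had correlations from -0.0542 to 0.0353 over the regions of the genome. With 2 libraries per group this cannot show whether same-numbered libraries share a culture or a batch. A replicate block cannot change a difference of means or these calls. The PAX3-FOXO1 difference was therefore again -0.0223, with 14 gained and 34 lost, and the other counts of calls also stayed. The p of the exact permutation test can change, and the pooled class II value became 0.111 with the block. Depth is unknown without reads, so a missing peak is not shown to be closed chromatin.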
